A study of Rattus norvegicus with 5 samples.

Results

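JAK-STAT signalling and its feedback inhibitors were followed here through 5 genes, Socs3, Socs2, Cish, Stat3 and Jak2, in rat lung exposed to urban dust. All probe sets that the platform annotation pairs with 1 of these symbols alone were taken, which gave 8 probe sets: 3 for Jak2, 2 for Stat3 and 1 each for the others. The whole table held 4736 named genes. All 8 probe sets exceeded a floor on low intensities on at least 1 array, some of them only on exposed arrays.

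Lung RNA was hybridised to 5 arrays, 1 per group, each with equal amounts of RNA from several times or animals combined. EHC-93, an urban outdoor dust, had been given by intratracheal instillation, and samples taken 2, 4 and 6 h later made up the early array, those at 15, 18 and 21 h the intermediate one, and those at 24, 32 and 40 h the late one. The sham array combined RNA from 2, 15 and 24 h after instilled saline, so no phase had a saline control of its own times. The untreated array combined lungs of 3 rats without instillation. Dust dose, strain, sex, age and the number of rats behind the instilled pools were not given in the sources used here. Since each group had 1 array, folds between arrays are given without error or p-value, and fewer cells of a type cannot be told apart from less RNA per cell.

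In this pathway a cytokine or growth hormone brings its receptor chains together, and the Janus kinases bound to them, such as Jak2, phosphorylate the receptor and the STAT proteins that dock there. STAT dimers enter the nucleus and switch on genes that include the pathway's own inhibitors: Socs3 shuts down signalling through the IL-6 receptor chain gp130, while Cish and Socs2 dampen STAT5 signals from growth hormone and related cytokines. In inflamed lung, Stat3 is best known for relaying IL-6 family signals into acute phase and epithelial survival genes.

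The STAT palindrome is shown first for the promoters, since STAT dimers bind it and Cish is a textbook STAT5 target. RefSeq promoter sequences of the rat build GRCr8 were present for 4 of the 5 genes; Socs2 had no entry. In the 250 bases before the annotated transcript start, TTCNNNGAA, which reads alike on both strands, had 4 matches for Cish and 0 for Jak2 and Stat3. The Socs3 entry also had 0, but its window ends close before the start codon and may lie at an internal exon rather than at the main promoter, so that 0 says little about the Socs3 promoter. The Cish window lies on the plus strand at chr8:116850719-116850968, and capitals mark the 4 matches.

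Cish promoter: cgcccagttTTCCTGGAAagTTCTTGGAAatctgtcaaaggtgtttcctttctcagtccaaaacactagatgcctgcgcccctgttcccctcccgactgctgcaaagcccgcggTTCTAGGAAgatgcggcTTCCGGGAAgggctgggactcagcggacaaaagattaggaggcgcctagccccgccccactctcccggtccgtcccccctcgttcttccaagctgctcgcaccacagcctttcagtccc

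The 4 matches form a distal and a proximal pair. Their first bases lie at -241, -230, -136 and -119 from the transcript start, and in the list the outer bases that the motif fixes are in capitals.
Cish match 1: TTCctgGAA
Cish match 2: TTCttgGAA
Cish match 3: TTCtagGAA
Cish match 4: TTCcggGAA
Of 33469 promoter windows of this length, 7.67% held at least 1 match, 0.418% at least 2, and 2 windows, that of Cish among them, at least 4. The form with 4 unspecified bases between TTC and GAA was in none of the 4 members' windows and in 6.25% of all. A match is a description of these letters and not a measured binding site, and no match says only that they are not in this window.

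**Figure D1:**
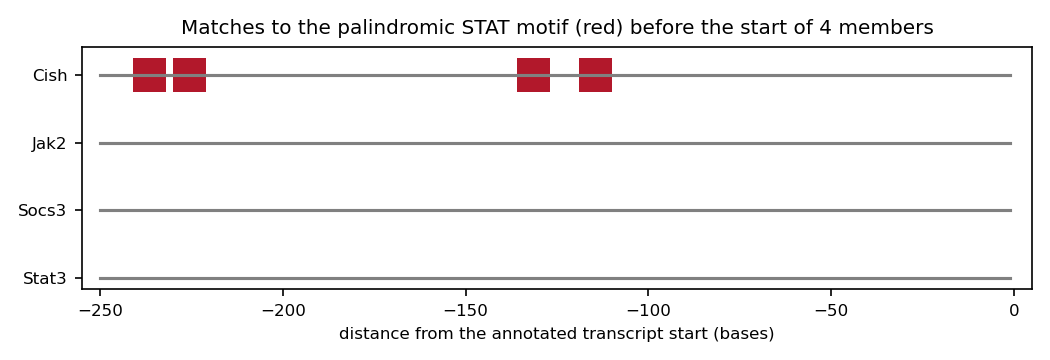
Positions of TTCNNNGAA matches (red blocks) in the 250 bases before the annotated transcript start of Cish, Jak2, Socs3 and Stat3; the horizontal axis is the distance from the start in bases. Cish has 4 matches, in a distal and a proximal pair, and the other 3 windows have 0; the Socs3 window may not be its main promoter.

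On the early array 4 of the 8 probe sets, 1 each for Cish, Socs2, Jak2 and Stat3, were at least 2-fold above both the sham and the untreated array. Of all 6188 probe sets that exceeded the floor at least once, 3.17% were. By any amount, 7 of the 8 lay above both controls, against 35.3% of all probe sets; Socs3 was the exception, above the untreated but below the sham array. Measured from the average of the controls, the 8 had a median log2 difference of 1.07, against 0 over all probe sets. Intensities below are scaled so that the arrays share 1 median, with a floor of 173, and a fold against a value under the floor is a lower bound.

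Cish, a SOCS family protein that competes for STAT5 docking sites, reached a scaled intensity of 769 early, 129 intermediate and 137 late, against 340 on sham and 246 on untreated. The early value was thus the highest, and both later exposed values lay under the floor, below both controls. Early Cish exceeded sham by 2.26-fold and untreated by 3.12-fold, and was at least 4.46-fold above each later phase. On the intermediate and late arrays it was at least 1.97-fold below sham and at least 1.43-fold below untreated. These are the largest drops that the floor lets show, so the 2-fold rule could not be met. Sham exceeded untreated by 1.38-fold. With arrays scaled to their 75th percentile the early excess over sham was 1.99-fold, which ends the Cish call.

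Socs2, the feedback inhibitor best known for restraining growth hormone signalling, read 704 early, 204 intermediate and 355 late, with sham at 237 and untreated at 240. All 5 values were above the floor, and the controls lay within 0.02 of each other on the log2 scale. Early Socs2 exceeded sham by 2.97-fold and untreated by 2.93-fold. The late value was 1.498-fold and 1.48-fold above them, and the intermediate value 1.16-fold and 1.18-fold below. Early exceeded intermediate by 3.46-fold and late by 1.98-fold, the latter just short of the rule.

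Jak2, the kinase of the growth hormone receptor and many cytokine receptors, was read by 3 probe sets. The probe set U13396_at read 523 early, 139 intermediate and 252 late, and both controls read 217. Its early value exceeded sham by 2.42-fold and untreated by 2.41-fold. U13396_g_at, built on the same sequence entry, read 665, 441, 363, 333 and 306 in the same order of arrays. It lay just outside the rule on the early array, at 1.998-fold above sham and 2.17-fold above untreated. The third, AJ000557cds_s_at, read 295 early and 209 at the intermediate times, with the other 3 arrays under the floor, so its early value was at least 1.71-fold above both controls.

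All 3 Jak2 probe sets were thus highest on the early array. They parted at 15 to 21 h: U13396_at lay under the floor there, at least 1.26-fold below both controls, while U13396_g_at was 1.33-fold above sham and 1.44-fold above untreated.

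Stat3, the transcription factor that Jak kinases activate downstream of gp130, was read by 2 probe sets that did not show the same order of arrays. X91810_at read 370 early, 17.5 intermediate and 77.8 late, with sham at 127 and untreated at 176. Only the early value stood clear of the floor, and it was the member nearest inside the rule, at least 2.15-fold over sham and 2.10-fold over untreated. The other, rc_AI639141_at, made from an expressed sequence tag, read 186 early, 242 intermediate and 205 late, and both controls were under the floor. Its exposed values were at least 1.08-fold, 1.40-fold and 1.19-fold above the controls in that order, so it was highest on the intermediate array and passed in no phase.

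Socs3, the inhibitor that IL-6 type cytokines induce through Stat3, had its highest value on the sham array. It read 242 early, 43.3 intermediate, 58.6 late, 524 on sham and 75.9 on untreated, with only early and sham above the floor. Sham was at least 3.04-fold above untreated; Socs3 was the 1 probe set of the 8 past 2-fold higher in that comparison, against 1.66% of all. The early value was 2.17-fold below sham and at least 1.40-fold above untreated. It was thus past 2-fold against sham alone and was not called. Both later values were at least 3.04-fold below sham and, like untreated, under the floor. Against the sham array alone, a comparison added after the values were seen, Socs3 would be called lower on each exposed array; against the untreated array alone it would be called on none.

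**Figure D2:**
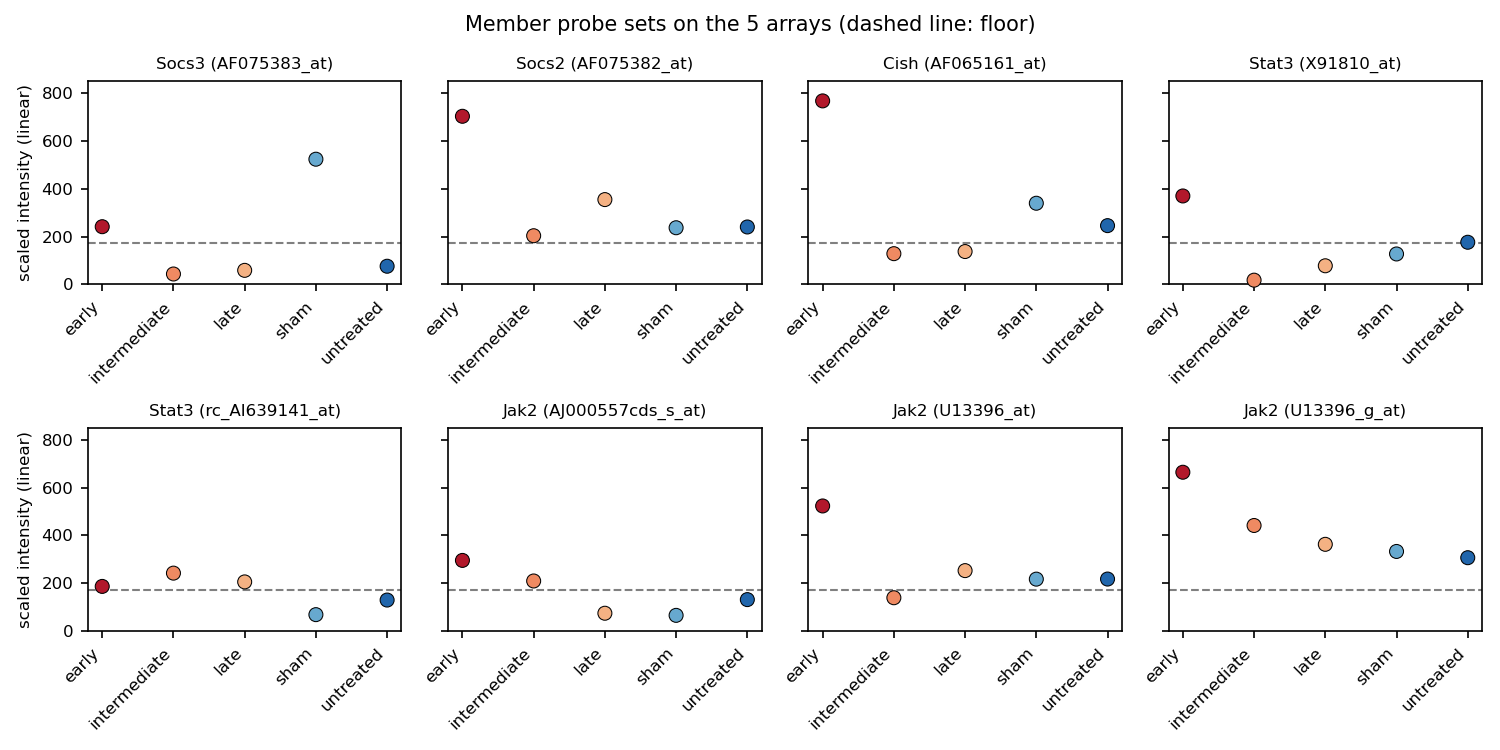
Scaled intensity (vertical axis, linear) of the 8 probe sets on the 5 arrays, 1 point per array; the dashed line is the floor of 173. Early is the highest of the 5 points in 6 of the panels, sham in that of Socs3 (524) and intermediate in that of the second Stat3 probe set (242). Over all probe sets above the floor at least once, early was highest in 22.8%, intermediate in 26.2% and sham in 15.2%.

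At the later times no member probe set passed the 2-fold rule, and few of all probe sets did. With 8 probe sets, the other counts cannot be set apart from the shares of all. A lower call needs both controls at least 2-fold above the floor, and no member probe set had that. The 0 of 8 lower in each phase was thus fixed by the floor and is not a result. On the intermediate array 0 of 8 probe sets were past 2-fold higher (0.824% of all probe sets were) and 0 of 8 past 2-fold lower (0.339%). By any amount, 3 lay above both controls (43.8% of all) and 3 below both (20.1%). On the late array 0 of 8 were past 2-fold higher (0.566%) and 0 of 8 lower (0.953%), with 4 above both controls (41.2%) and 1, Cish, below both (21.1%). The 8 had medians of -0.12 and 0.09 at these times, against 0.07 and 0.05 over all probe sets.

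Compared with the later dust phases instead of the controls, 3 of 8 probe sets were at least 2-fold higher on the early array than on both, those of Cish, Stat3 (X91810_at) and Jak2 (U13396_at); 2.57% of all probe sets were. For Stat3 the early value was at least 2.15-fold above both. Jak2 by U13396_at was at least 3.03-fold above intermediate and 2.07-fold above late.

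**Figure D3:**
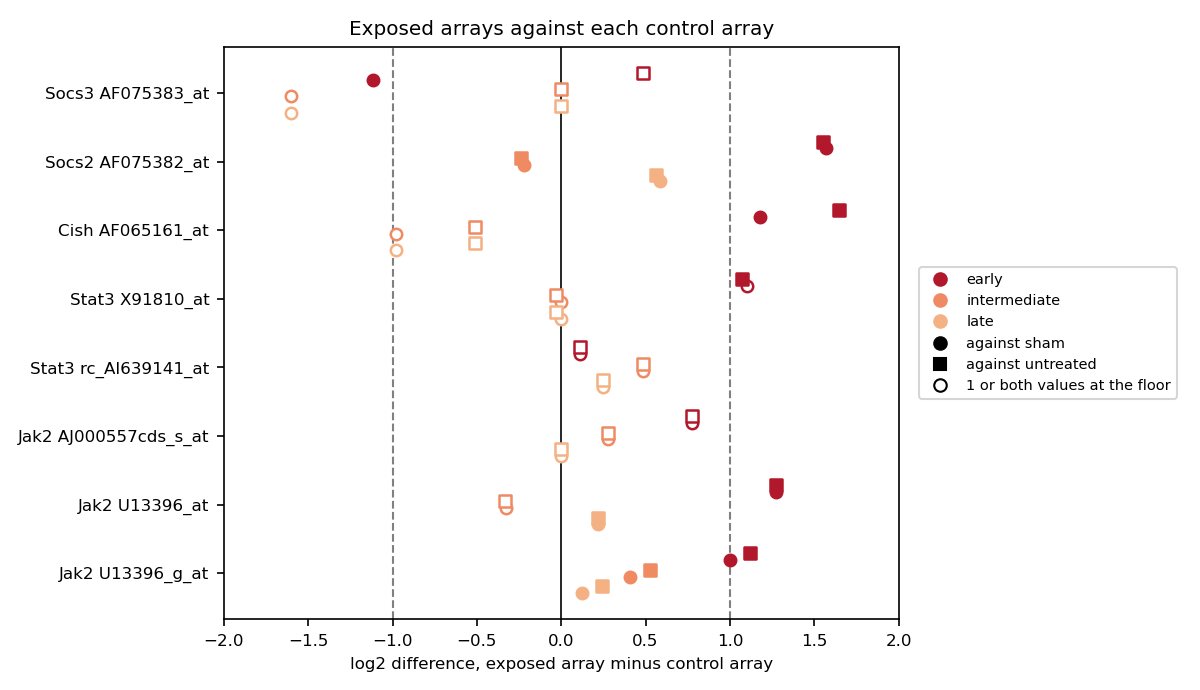
Difference in log2 intensity (horizontal axis) between each exposed array and the sham (circles) or untreated array (squares) for the 8 probe sets; open symbols have 1 or both values at the floor and the dashed lines are 2-fold. The early points of Cish, Socs2, Stat3 X91810_at and Jak2 U13396_at lie right of the upper line against both controls, and the points of Socs3 against sham lie left of the lower one.

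The arrays also differed in other measures, whose part in these results was not tested. The 5′ to 3′ signal ratio, which reflects how complete the RNA copies were, was highest on the early array, at 43.1% for beta-actin and 67.2% for GAPDH. On the other 4 arrays it was 9.07% to 24.4% and 23.6% to 39.1%. The intermediate array, where Socs2 was lowest and Cish, Socs3, Stat3 X91810_at and Jak2 U13396_at lay under the floor, had the lowest ratios. Cish, Socs3 and Stat3 X91810_at also lay under the floor on the late array, whose ratios were 19.6% for beta-actin and 38.1% for GAPDH. The neutrophil genes S100a8, S100a9 and Padi4 were all at least 2-fold above both controls early, with summed intensities of 5928 early, 5480 intermediate, 3617 late, 2567 sham and 1977 untreated. Of 11 genes in that list 4 were measured, Cxcr2 and Itgam lay under the floor on every array, and the fourth measured gene, Selp, is P-selectin of endothelium and platelets and was left out of the sums after its values were seen. Selp read 504 early against 115 on sham and 243 on untreated. Of 4 measured endothelial genes, summing to 4132 early and to 2358 to 3310 on the other arrays, Edn1 passed the 2-fold rule early, at 895 against 395 and 266. Pecam1 was also above both controls early, at 1222 against 432 and 644. Kdr, at 1950, lay between sham (1741) and untreated (2219), and Vwf was under the floor early. Of 4 measured alveolar type 1 genes, summing to 48407 early and to 39211 to 42386 elsewhere, Cav1 passed, at 2655 against 808 and 783. The 4 measured adipocyte genes summed to 3352 early, 3606 intermediate and 3155 late, against 4672 on sham and 5493 on untreated. Cfd was at least 2-fold lower early, as were 1 gene on the intermediate array and 2 on the late one. Cardiac muscle genes summed to 11868 early, 23967 intermediate, 9500.1 late, 17959 sham and 33490 untreated, with 0 of 4 passing early. Lung identity was borne out by surfactant protein genes, with Sftpc between 48085 and 71970. Depth is not defined for arrays; their number limits the precision.

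Averaged over the phases, exposure was compared with no exposure over 3 against 2 arrays, the only comparison with more than 1 array a side. limma's moderated test with Benjamini-Hochberg adjustment over 6188 probe sets called 0 of 8 member probe sets in either direction, with 0% of all probe sets called higher and 0% lower; at an unadjusted p under 0.05 it held 0 of the 8 and 428 of all (6.92%). Jak2 U13396_g_at had the smallest adjusted p of the 8, 0.807, with a log2 difference of 0.57 (95% interval -0.16 to 1.30), 8.89 ± 0.45 (SD, n = 3) against 8.32 ± 0.08 (n = 2). Socs2 differed by 0.63 (-0.72 to 1.99, adjusted p = 0.848). For Cish the means were almost level, with a difference of -0.03 (-1.91 to 1.86, adjusted p = 0.998), since the early and the later arrays lay on opposite sides of the controls. Socs3 differed by -0.64 (-1.92 to 0.64, adjusted p = 0.844), with an SD of 1.13 between the 2 unexposed arrays. The intervals of 7 of the 8 probe sets, the exception being Stat3 rc_AI639141_at, reach past 2-fold, and phase and saline differences are part of the error.

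Other genes of the pathway were taken from a list of 132 ligands, receptors, kinases, STATs, inhibitors and STAT target genes, of which 70 were measured as 1 probe set per gene. On the early array 9 of these 70 were at least 2-fold above both controls and 0 below, against 2.54% of 3667 genes higher and 0.3% lower. On the intermediate array 4 were higher (0.873% of genes), and on the late array 2 were higher (0.6%) and 1 lower (1.04%). Medians of the 70 were 0.18, 0.04 and 0.03 on the log2 scale in time order, against -0.01, 0.09 and 0.07 over all genes.

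Among ligands, 2 of 11 measured were higher early, against 2.54% of all genes. Il6, the gp130 cytokine that acts through Jak kinases and Stat3, read 1004 early, at least 5.82-fold above each of the other 4 arrays, all under the floor. Its second probe set read 193 early and lay under the floor elsewhere. Csf3, the granulocyte growth factor, read 439 early, 216 intermediate, 272 late, 196 sham, with untreated under the floor, so early was 2.25-fold above sham and at least 2.55-fold above untreated. Il13, a cytokine of type 2 immunity that signals through Stat6, was the 1 lower gene of the late array: under the floor there against 465 on sham and 347 on untreated, at least 2.70-fold and 2.01-fold lower. Il15 and Lep, with the highest mean among the other ligands, passed in no phase.

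None of 13 measured receptors passed in any phase, and the early median was 0.04. With 2.54% of all genes higher early and smaller shares later, 0 of 13 says little. Il6r, the IL-6 binding chain, read 1451, 1222, 1393, 1280 and 1263 on the early, intermediate, late, sham and untreated arrays, a spread of under 1.2-fold between any exposed and control array. The gp130 gene Il6st read 559 early, 503 intermediate and 352 late against 272 on sham and 419 on untreated. Il4r, which shares Jak1 and Stat6 signalling with Il13, was 1.33-fold and 1.52-fold above the controls early.

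None of 6 other Janus kinases and STATs and none of 10 other inhibitors passed in any phase, with early medians of 0.10 and -0.17. At the shares of all genes, these counts say little as well. Jak1 read 267 early, with the other 4 arrays under the floor. Stat5a, which Cish and Socs2 restrain, read between 607 and 642 on all 5 arrays. Socs7 read 1265 early, 1668 intermediate, 827 late, 840 sham and 1488 untreated, so it showed no early excess over both controls. Ptpn1, a tyrosine phosphatase that acts on Jak2, was 1.51-fold above sham and 2.01-fold above untreated early. Jak3, Stat2 and Ptpn6 stayed within 2-fold of both controls on every exposed array.

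STAT target genes, the largest role with 31 measured, had the most calls, 7 early (median 0.54), 4 intermediate (0.19) and 2 late (0.13). Of all genes, 2.54%, 0.873% and 0.6% were higher in these phases. None of the 31 was lower in any phase, where 0.3%, 0.218% and 1.04% of all genes were. Early, Junb (3.33-fold above sham and 2.84-fold above untreated), Myc (2.33-fold and 4.36-fold) and Cebpd (2.59-fold and 5.44-fold), transcription factors that respond to gp130 signals, were higher. So were the survival gene Bcl2l1 (2.30-fold and 2.81-fold), the fibrinogen chain Fgg (2.22-fold and 3.11-fold), the hypoxia factor Hif1a (2.54-fold and 2.18-fold) and the protease inhibitor Timp1 (2.07-fold and 2.87-fold). Second probe sets of Myc, Junb, Fgg and Timp1 passed as well; the 2 other Bcl2l1 probe sets above the floor did not, and of the 2 other Cebpd probe sets 1 passed and 1 read 281 early against 433 on sham.

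Later calls were of other target genes apart from Timp1. On the intermediate array Orm1, an acute phase plasma protein, was 8.65-fold and 12.9-fold above sham and untreated, the iron-siderophore binder Lcn2 2.41-fold and 8.20-fold, the chaperone Hspa5 2.41-fold and 2.73-fold, and Timp1 2.22-fold and 3.07-fold. Lcn2 was also higher on sham (20334) than on untreated (5976). On the late array Orm1 (4.33-fold and 6.43-fold) and the interferon-induced chemokine Cxcl10 (2.95-fold and 2.25-fold) were higher. Timp1 was 1.60-fold and 2.21-fold above the controls late by its main probe set. Its second probe set was past 2-fold late, at 2751 against 1222 on sham and 679 on untreated. Icam1 and Egr1, the targets with the highest mean among those not called, differed by under 2-fold from both controls by their main probe sets; 2 other Egr1 probe sets were past 2-fold early.

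**Figure D4:**
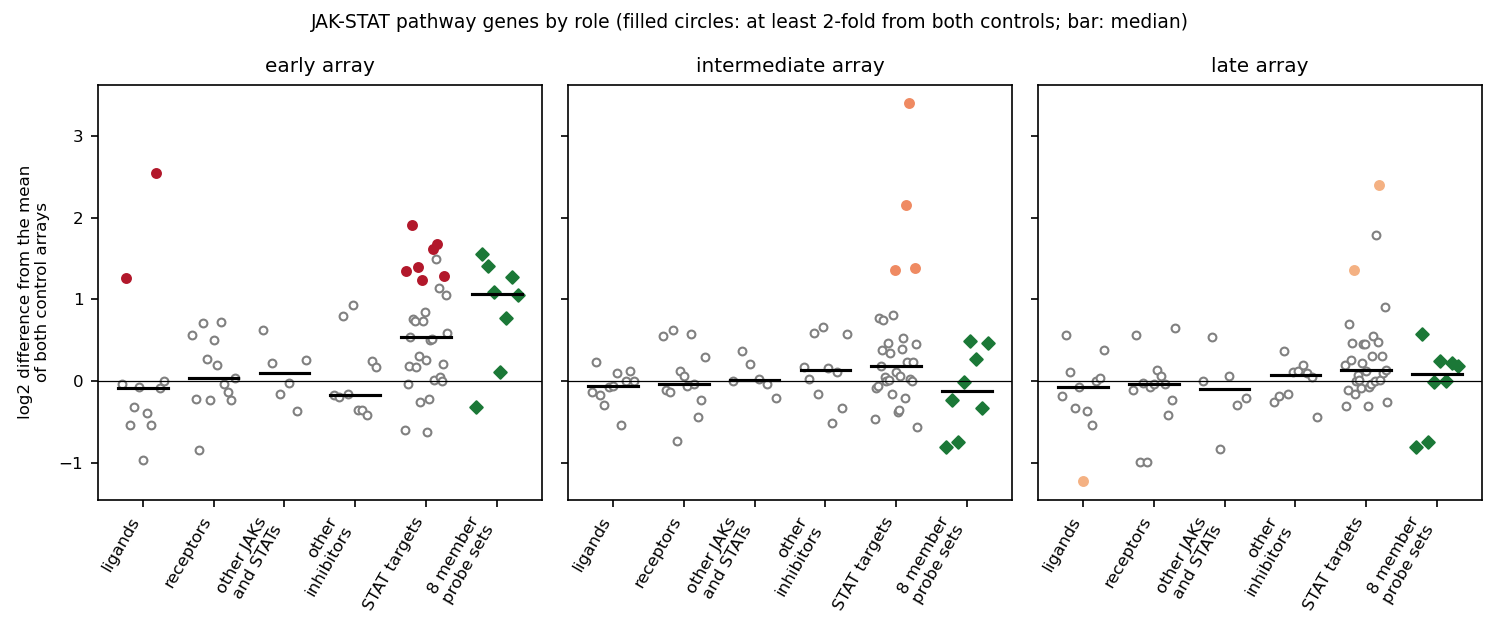
Log2 difference from the mean of both controls (vertical axis) for measured pathway genes by role and for the 8 member probe sets (green diamonds) on each exposed array; filled circles were at least 2-fold from both controls, and bars are medians. On the early array the bars of STAT targets (0.54) and of the members (1.07) lie above those of ligands, receptors, kinases and other inhibitors, which lie between -0.17 and 0.10.

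The genes whose log2 values over the 5 arrays were most like each member's were sought among 639 genes spanning at least 2-fold, as a description over 5 shared arrays. For Cish these were Ccl20, a chemokine of the CCR6 receptor (Pearson r 0.986, reading 2375, 531, 389, 907 and 638 in array order), Rhoa (0.963) and Cav1 (0.958). For Socs2 they were Errfi1, an inhibitor of the EGF receptor (0.994), Vdac1 (0.992) and Zfp36, which destabilises cytokine messages (0.988). For Stat3 by X91810_at they were Slc6a20a (0.997), Calcrl (0.997) and the chemokine Cx3cl1 (0.996), and for Jak2 by U13396_g_at Txnrd1 (0.999), Trib3 (0.992) and Hsph1 (0.980). For Socs3 they were Mapk4 (0.991), Grk1 (0.965) and 1810009J06Rikl (0.962), each highest on the sham array. For Socs3 and for Stat3 X91810_at, 3 of the 5 values were at the floor, so the likeness of Stat3 X91810_at rests on the early array almost alone. With 5 points such values are easily reached: the tenth most similar gene still had r of 0.893 for Socs3 and 0.983 for Stat3.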

How the data were processed

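The deposited table holds 1 linear intensity for each of 8799 probe sets on 5 arrays; the sources used here name no software. That the authors scaled the arrays is read from the deposited intensity values, whose mean after trimming 2% at each end is 1001 to 1002 on each. The 59 control probe sets were left out. Symbols came from the platform annotation: 7006 probe sets carried 1 symbol, while 308 with several and 1426 unlisted ones stayed unnamed. All 5 members' gene identifiers were found in the RefSeq table of GRCr8.

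Intensities were scaled to a common median (factors 0.931 to 1.07), floored at the 40th percentile (173) and taken to log2. A probe set was called where it was at least 2-fold from both controls in the same direction. The 3 exposed and 2 unexposed arrays were compared with limma 3.58.1 (R 4.3.3; lmFit, eBayes, Benjamini-Hochberg, threshold 0.05), tested on simulated data. Each pathway gene was read by its brightest probe set on average; those called, and the 2 per role with the highest mean otherwise, were named. Il6st, Jak1, Stat5a and Socs7 were named after their values were seen. Likeness took genes above the floor on at least 3 arrays. Members and lists were chosen with earlier results of these data known. Alternatives covered scaling, floor, fold, filter, probe set choice, variance model and leaving out arrays. Protein sequences were not used here.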

Additional observations from a re-analysis of the deposited data

Results flagged for a closer look

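Of the 8 probe sets, 3 were called higher on the early array and lay below both controls on a later one. Of all probe sets, 3.17% were called higher early. By any amount, 20.1% lay below both controls on the intermediate array and 21.1% on the late one. The share with the combined pattern was not counted, so whether 3 of 8 is unusual is not known. Each phase had 1 array, so the difference between phases was not tested. Cish lay at the floor on the intermediate and the late array, with a log2 difference of -0.75 or lower from the mean of both controls on each, against 1.41 on the early array. Socs2 was -0.23 on the intermediate array against 1.56 early. Jak2 by U13396_at was -0.33 or lower on the intermediate array against 1.27 early, while U13396_g_at, from the same sequence entry, was above both controls there.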

How the results depend on the processing

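No paired analysis was possible because each group had 1 array. The count of 4 member probe sets higher on the early array was the same, or within 1.5 times, with values as deposited, 75th percentile scaling (3, without Cish), quantile normalization, a floor at the 20th percentile, a 1.5-fold rule, 1 probe set per gene (3, without Jak2) and either control alone, but was 0 with a 3-fold rule or a floor at the 60th percentile, which at 458 exceeds most member values. That floor also gave 0 for early against the other phases and for sham against untreated. It left 1 pathway gene higher and 0 lower late. The floor at the 20th percentile gave 1 member lower each on the intermediate array, for sham against untreated, and for late against the other phases, and 2 pathway genes lower late. Pathway genes lower late were 3 with values as deposited or 75th percentile scaling and 2 with quantile normalization, which gave 2 higher intermediate. A 1.5-fold rule gave 18 higher and 2 lower early, 1 lower intermediate, and 5 higher and 4 lower late. Counting all probe sets gave 17 higher early. The count of 9 pathway genes higher early fell to 6 with 75th percentile scaling and to 7 with a floor at the 60th percentile. It was 8 with values as deposited or quantile normalization. Leaving out 1 control array, added after seeing the data, gave 0 to 1 member lower on each exposed array, 1 being Socs3 against sham alone. With values as deposited the median of all probe sets on the intermediate array moved from 0.07 to -0.05 (log2), and U13396_g_at on the late array was no longer above both controls. limma called 3 probe sets without the filter, none of them a member, and 0 under its other settings, and the members' limma adjusted p lay between 0.288 and 1 over the settings in which each was tested. Signal over the floor limits the folds: of the 8, Socs2 and U13396_g_at exceeded it on all 5 arrays, and the others on 2 to 4.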
